A study of Sus scrofa with 24 samples.

Results

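The messenger RNAs of the cytosolic ribosomal proteins were examined in pig (Sus scrofa) liver. Genes were taken by name: every feature of the array that matched a gene whose symbol begins with RPL or RPS and a number, or is RPLP0, RPLP1, RPLP2 or RPSA, with the ribosomal S6 kinases left out. This gave 64 genes with 289 probes, out of 5546 named genes and 43603 probes, of which 29665 passed a filter on dim signal. Of the 64 genes, 63 passed that filter, 38 of the large (60S) and 25 of the small (40S) ribosomal subunit, with 279 probes. RPL9 was the exception, since its probe was not well above background on any of the 24 arrays. RPL10L was well above background on 15 arrays and the other 62 genes on all 24. No spot of these genes was saturated.

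Liver RNA came from 24 pigs at 115 kg body weight, 8 per group, hybridised to 1 array each. RFIneg pigs belong to the line with low residual feed intake (RFI), the feed eaten beyond what growth and maintenance predict, and had free access to feed. RFIpl pigs belong to the line with high RFI and also ate freely. RFIplR pigs are of the high RFI line too, but were given feed at the level eaten by RFIneg pigs. RFIpl minus RFIneg thus compares the lines at free intake, RFIplR minus RFIpl compares feeding levels within a line, and RFIplR minus RFIneg compares the lines at the same feeding level. All 3 comparisons reuse arrays, so RFIpl enters both the first and the second, and they are not independent of each other.

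Between 63.2% and 72.7% of the spots of an array were well above background, and the mean share was highest in RFIpl, at 70.2% ± 2.28 against 67.8% ± 2.77 in RFIneg and 67.4% ± 2.81 in RFIplR (SD, n = 8 each). Of 10 hepatocyte markers listed for the check, such as ALB, 8 were found and all 8 were well above background on every array, with a mean log2 level of 8.59 to 8.85 over all pigs. Markers of other cells also differed in RFIpl minus RFIneg, none of them past the threshold. The smallest limma p-values among all markers were those of the pancreatic acinar marker CPA1 at -1.32 (limma adjusted p = 0.317; PNLIP and CELA1 were on the array but did not pass the filter) and, of 5 stellate cell and fibroblast markers measured with a median of -0.31, RGS5 at -1.10 (adjusted p = 0.162) and COL1A2 at -0.54 (adjusted p = 0.405). The 3 neutrophil markers measured had a median of -0.61 and the 4 proliferation markers of 0.36. In RFIplR minus RFIpl the medians were -0.18 for stellate, 0.23 for neutrophil and -0.61 for proliferation markers, and CPA1 was at -0.485. Their part in the results below was not tested. In bulk liver, fewer cells of a type and less RNA per cell cannot be told apart.

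Each ribosome carries about the same set of ribosomal proteins, made in step with one another, and their mRNAs are abundant in growing and secreting cells. These mRNAs begin with a run of pyrimidines, the 5' terminal oligopyrimidine (TOP) motif, through which the kinase mTOR couples their translation to nutrients. The liver builds ribosomes and plasma proteins at a rate that follows feeding.

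Levels below are log2 signals relative to the 75th percentile of the same array. They are read within a probe only, because probes differ in brightness for reasons other than abundance. A probe was called where the adjusted p of limma (Benjamini-Hochberg over all 29665 probes) was below 0.05. A gene is represented by its brightest probe, unless another is named.

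RPL14, a protein of the 60S subunit, was lower in RFIpl than in RFIneg liver and was the only ribosomal protein gene with a called probe. Of the 29665 probes tested, 45 (0.152%) were called in this comparison, 22 of them lower in RFIpl (0.0742%), and 2 of these 22 were probes of RPL14. Both called probes are shown, as 60 bases from 5' to 3' in the scanner output, with another RPL14 probe that has no such run in common with them. Capitals mark the run of 26 bases that the called probes have in common, so that they are not separate measurements of the transcript.
A_72_P655183: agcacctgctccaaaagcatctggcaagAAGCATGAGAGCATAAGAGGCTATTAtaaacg
A_72_P614716: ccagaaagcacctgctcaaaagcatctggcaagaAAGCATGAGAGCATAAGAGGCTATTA
A_72_P563904: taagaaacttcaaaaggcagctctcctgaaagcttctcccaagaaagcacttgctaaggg

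At A_72_P655183, the brightest RPL14 probe, RFIneg pigs had log2 levels from 6.48 to 6.75 with a median of 6.61. RFIpl pigs ranged from 6.06 to 6.42 with a median of 6.25, and RFIplR pigs from 6.32 to 6.60 with a median of 6.43. Every RFIpl pig lay below every RFIneg pig, whereas RFIplR pigs overlapped both groups. RPL14 was the only one of the 63 genes whose brightest probe gave no overlap between RFIneg and RFIpl (0.138% of all probes did so). None of the 63 separated RFIpl from RFIplR (0.0337% of all probes) or RFIneg from RFIplR (0.145%). The difference RFIpl minus RFIneg was -0.33 ± 0.064 (SE, n = 8 and 8), a level 1.26-fold lower, with a limma adjusted p of 0.0256.

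A_72_P614716 gave RFIneg levels of 6.29 to 6.47 with a median of 6.39, RFIpl levels of 5.90 to 6.21 with a median of 6.07, and RFIplR levels of 6.19 to 6.52 with a median of 6.29. RFIneg and RFIpl did not overlap here either, and the difference was -0.31 ± 0.060 (SE) with a limma adjusted p of 0.0256. The probe without the shared run, A_72_P563904, differed by -0.35 ± 0.078 (SE) with a limma adjusted p of 0.0715, and its RFIneg (5.66 to 6.14) and RFIpl (5.30 to 5.70) levels overlapped at the edge. All 6 RPL14 probes were below 0, from -0.25 to -0.46. In RFIplR minus RFIpl the brightest probe differed by 0.19 ± 0.064 (SE), which did not pass the threshold (limma adjusted p = 0.742), and in RFIplR minus RFIneg it differed by -0.14 ± 0.064 (SE, limma adjusted p = 0.354), or by 0.0525 with normexp background correction.

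The call of RPL14 in RFIpl minus RFIneg rested on the processing, although its direction did not. Over 49 alternative settings the brightest probe differed by -0.38 to -0.24 and was called in 27, with a limma adjusted p from 0.0086 to 0.867. Among other settings, it was lost with normexp background correction (adjusted p = 0.867), quantile normalization (0.0913), slide as a fixed factor (0.0812), only the groups compared in the fit (0.0647), and without RFIneg pig 1, 2, 6 or 8 or RFIpl pig 2, 3, 6 or 8, where it reached at most 0.0639. Leaving out a slide kept the call in 1 of 6 cases. Within a scan day (12 arrays, with RFIneg, RFIpl and RFIplR on 3, 4 and 5 of them on day 1 and on 5, 4 and 3 on day 2) the difference was -0.29 on day 1 and -0.36 on day 2, neither called.

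**Figure D1:**
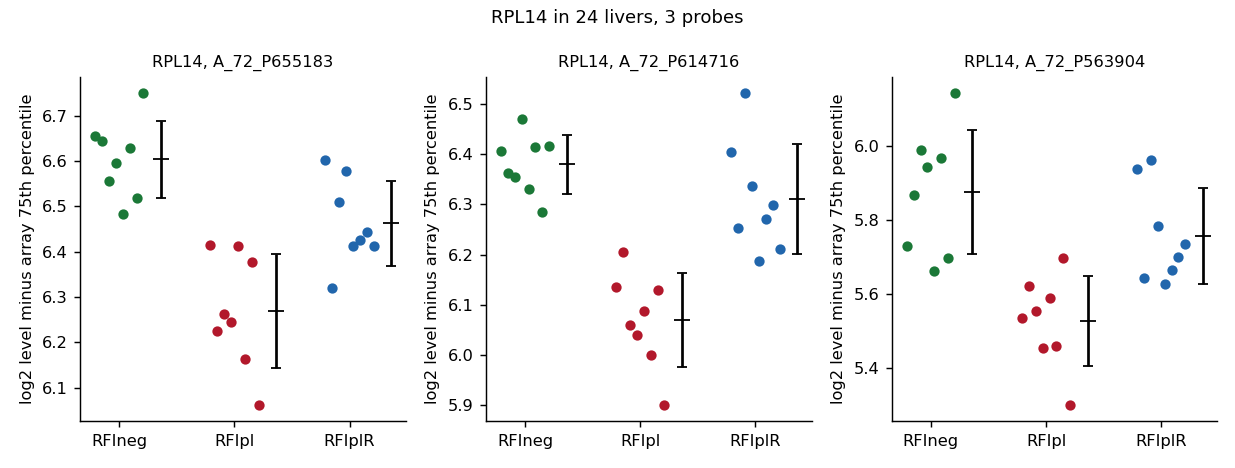
Log2 level of RPL14 relative to the array's 75th percentile (y axis) in each pig of the 3 groups (x axis). Shown are the 2 called probes and 1 probe without the run marked in capitals. Points are pigs, the bar is the mean ± SD of 8 pigs. RFIpl pigs (6.06 to 6.42 at A_72_P655183) lie under all RFIneg pigs at the called probes, and RFIplR pigs overlap both groups.

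Across the family, RFIpl minus RFIneg was below 0 for 57 of 63 genes, with a median of -0.091, against 49.2% of all probes below 0, 50.8% above 0 and a median of 0.0028 over all probes. With normexp background correction the direction relative to the other probes flipped: 34 of 63 genes were below 0, and their median of -0.014 lay 0.058 above the median of all probes. Single genes other than RPL14 did not pass the threshold. An unadjusted p below 0.05 was reached by 8 genes, all lower in RFIpl, against 4.5% of all probes lower and 5.09% higher at that level (9.59% in all). The 64 lower probes among all 279 at that level belong partly to the same transcripts, so they are not separate counts.

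By subunit, 35 of 38 genes of the 60S subunit were below 0 with a median of -0.095, and 22 of 25 of the 40S subunit with a median of -0.090. The exceptions above 0 were RPL7A, RPL26L1 and RPL35 of the 60S subunit and RPS2, RPS9 and RPS19 of the 40S subunit, the highest being RPS2 at 0.14 ± 0.12 (SE, limma adjusted p = 0.757). Of these 6, all but RPL26L1 were measured by 1 probe.

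RPL5 and RPL11 bind the 5S ribosomal RNA and carry it into the 60S subunit. When ribosome assembly fails they also bind the ubiquitin ligase MDM2. RPL5 levels ran from 7.55 to 7.84 (median 7.68) in RFIneg, from 6.96 to 7.64 (median 7.58) in RFIpl and from 7.42 to 7.83 (median 7.76) in RFIplR. The groups overlapped, though all 8 RFIpl pigs lay below the RFIneg mean. The difference was -0.24 ± 0.093 (SE), with an unadjusted p of 0.018 and a limma adjusted p of 0.409. RPL11 ran from 7.82 to 8.19 (median 7.96) in RFIneg, 7.75 to 7.94 (median 7.81) in RFIpl and 7.84 to 8.01 (median 7.93) in RFIplR, again with all 8 RFIpl pigs below the RFIneg mean. Its difference was -0.14 ± 0.058 (SE, limma adjusted p = 0.434). The RPL11 probes disagreed, with 3 of 5 below 0 and a span from -0.17 to 0.17.

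RPL5 had 18 probes, and all 18 were below 0 in RFIpl minus RFIneg, from -0.39 to -0.045. A pair of overlapping RPL5 probes is shown as an example of how the array covers this transcript repeatedly. They have the 52 bases in capitals in common, and their differences were -0.25 ± 0.091 and -0.19 ± 0.11 (SE).
A_72_P742246: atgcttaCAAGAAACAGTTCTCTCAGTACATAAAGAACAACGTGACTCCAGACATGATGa
A_72_P797407: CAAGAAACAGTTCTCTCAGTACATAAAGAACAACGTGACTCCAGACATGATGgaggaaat

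Other 60S proteins with a large difference were RPL7, RPL10A and RPL36. RPL7 differed by -0.19 ± 0.093 (SE, limma adjusted p = 0.531) and all 16 of its probes were below 0. RPL10A differed by -0.185 ± 0.097 (SE, adjusted p = 0.569), with all 8 probes below 0. RPL36, measured by 1 probe, differed by -0.21 ± 0.096 (SE, adjusted p = 0.473). The stalk proteins recruit the translation factors that hydrolyse GTP. At their brightest probes they stayed nearer to 0: RPLP0 at -0.098 ± 0.072, RPLP1 at -0.065 ± 0.058 and RPLP2 at -0.063 ± 0.069 (SE). Their limma adjusted p ran from 0.709 to 0.817. For RPLP0 this did not hold at all probes. A_72_P712399 was at -0.23, A_72_P730107 at -0.197 and A_72_P728748 at -0.149, while A_72_P725423 was at -0.032. RPL10L, a paralogue of RPL10 known mainly from testis, was the dimmest gene that passed the filter and differed by -0.32 ± 0.23 (SE, limma adjusted p = 0.702).

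Of the 40S subunit, RPS6, the substrate of the S6 kinases, differed by -0.074 ± 0.10 (SE), RPS3, which lines the mRNA entry channel, by -0.046 ± 0.063, and RPSA, also known as the laminin receptor, by -0.013 ± 0.085, with limma adjusted p from 0.863 to 0.98. Other RPSA probes differed more than its brightest, with A_72_P004351 at -0.25 and A_72_P635916, which overlaps it, at -0.205. RPS27A, made as a fusion with ubiquitin, differed by -0.15 ± 0.10 (SE, limma adjusted p = 0.703).

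**Figure D2:**
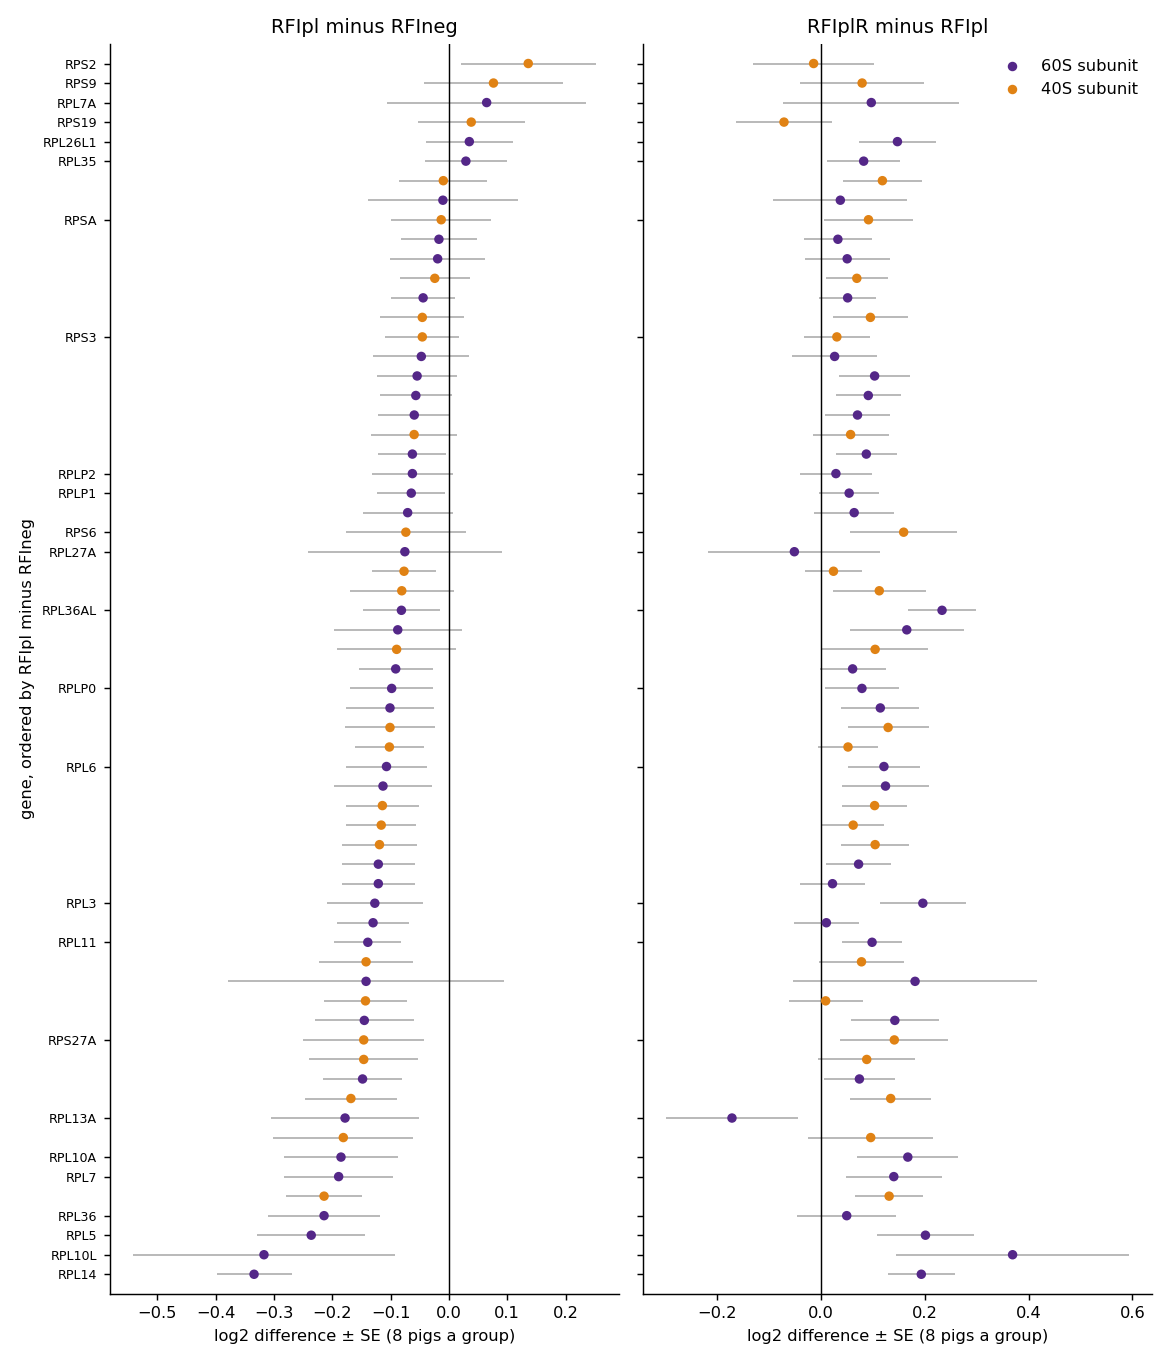
Log2 difference ± SE of each of the 63 genes (y axis, ordered by the left panel, with names for genes described in the text) in RFIpl minus RFIneg (left) and RFIplR minus RFIpl (right), x axes in log2 units. On the left 57 points lie below 0 (34 with normexp background correction) and on the right 59 lie above 0. Both panels use the same RFIpl arrays.

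In RFIplR minus RFIpl, feed restriction within the high RFI line, 59 of 63 genes were above 0 and the median was 0.088, against 49.0% of all probes above 0, 51.0% below 0 and a median of -0.0035. With normexp background correction 57 were above 0 with a median of 0.13. No probe of the array was called in this comparison (0.0%), and 1575 of 29665 reached an unadjusted limma p below 0.05 (5.31%), of which 836 were higher (2.82%) and the rest lower (2.49%). Among the 63 genes, 4 reached that level, all higher in RFIplR: RPL14, RPL36AL, RPL5 and RPL3. RPL36AL, a paralogue of RPL36A, ran from 5.86 to 6.05 (median 5.95) in RFIpl and from 5.88 to 6.27 (median 6.21) in RFIplR, with 7 of 8 RFIplR pigs above the RFIpl mean. The difference was 0.23 ± 0.065 (SE, limma adjusted p = 0.668). RPL3, which lies at the peptidyl transferase centre, differed by 0.20 ± 0.082 (SE, limma adjusted p = 0.901), and RPL5 by 0.20 ± 0.093 (SE, adjusted p = 0.919).

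The 4 genes below 0 in RFIplR minus RFIpl were RPL13A, RPL27A, RPS2 and RPS19. RPL27A and RPS19 were among the 5 dimmest genes. RPL13A, known also as part of the interferon-activated inhibitor complex of translation, ranged from 4.46 to 5.29 (median 4.85) in RFIneg, from 4.31 to 5.10 (median 4.70) in RFIpl and from 4.16 to 4.89 (median 4.65) in RFIplR. It thus had its lowest mean in RFIplR, with overlap between all groups. Its difference was -0.17 ± 0.13 (SE) in RFIplR minus RFIpl, -0.18 ± 0.13 in RFIpl minus RFIneg and -0.35 ± 0.13 in RFIplR minus RFIneg, with limma adjusted p of 0.961, 0.703 and 0.239.

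The comparison of the lines at the same feeding level, RFIplR minus RFIneg, left the family near 0, at 34 genes below and 29 above 0 with a median of -0.0050, against 49.7% of all probes below 0 and 50.3% above. None of the 63 genes was called, while 82 of all probes were (0.276%). At an unadjusted limma p below 0.05, 2 genes were lower (RPL13A and RPL14) and 2 higher (RPL26L1 and RPL36AL), against 6.16% and 6.59% of all probes (12.7% in all). RPL26L1, a paralogue of RPL26, differed by 0.18 ± 0.074 (SE, limma adjusted p = 0.291). All 5 paralogue genes (RPL7L1, RPL10L, RPL26L1, RPL36AL and RPL39L) were above 0 here, from 0.027 to 0.18. This comparison moved with the scaling: the median was -0.036 with 45 of 63 genes below 0 after quantile normalization. With normexp background correction it was 0.12 with 9 below 0, where the median of all probes shifted to -0.10.

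Set against the mean of RFIneg and RFIplR, the groups that ate less, RFIpl was lower for 61 of 63 genes, with a median of -0.079. Of all probes, 49.1% were below 0 and 50.9% above. This contrast combines RFIpl minus RFIneg and RFIplR minus RFIpl on the same arrays, and was chosen with earlier results of these data known. Its counts therefore largely follow from those 2 comparisons and add no separate evidence. All 38 genes of the 60S subunit were below 0, as were 23 of 25 of the 40S subunit, the exceptions being RPS2 and RPS19. No gene of the family was called, and 2 of all probes were (0.00674%). An unadjusted limma p below 0.05 was reached by 8 genes, all lower, against 2.75% of all probes lower, 3.03% higher and 5.78% in either direction. RPL14 at -0.26 had the smallest limma adjusted p of these, 0.303. In the moderated F test over the 3 groups 61 probes were called (0.206%), among them A_72_P614716 of RPL14 with a limma adjusted p of 0.0373, and the brightest RPL14 probe missed it at 0.0514.

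Pig by pig, the family moved largely together. Each gene was expressed as its deviation from its own mean over the 24 pigs, and the 63 deviations were averaged. RFIneg pigs ran from -0.055 to 0.12 (mean 0.033 ± 0.048, SD, n = 8), RFIpl pigs from -0.16 to 0.047 (mean -0.061 ± 0.082) and RFIplR pigs from -0.10 to 0.19 (mean 0.028 ± 0.085). The groups overlapped, and RFIpl was split: pigs 4 to 8 lay between -0.16 and -0.098, under every RFIneg pig, while pigs 1 to 3 lay between 0.025 and 0.047, inside the RFIneg range. RFIplR pig 3 stood highest, with the top level of all 24 pigs in 31 of the 63 genes, and RFIplR pig 5 lowest of its group at -0.10.

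Each of the 6 slides held 4 arrays from all 3 groups, so differences can be read within a slide. The median of the 63 genes in RFIpl minus RFIneg was below 0 within each slide, from -0.020 on slide 1 to -0.20 on slide 2. A slide held only 1 or 2 pigs of a group, and the genes of an array are not replicates. On slide 1, with 1 RFIneg and 1 RFIpl pig, 34 of the 63 genes were below 0. RFIplR minus RFIpl was above 0 on 5 slides, from 0.0024 to 0.17, and at -0.017 on slide 5. By scan day, the medians were -0.13 and -0.068 for RFIpl minus RFIneg and 0.11 and 0.044 for RFIplR minus RFIpl. With slide as a fixed factor the medians were -0.094 and 0.085.

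**Figure D3:**
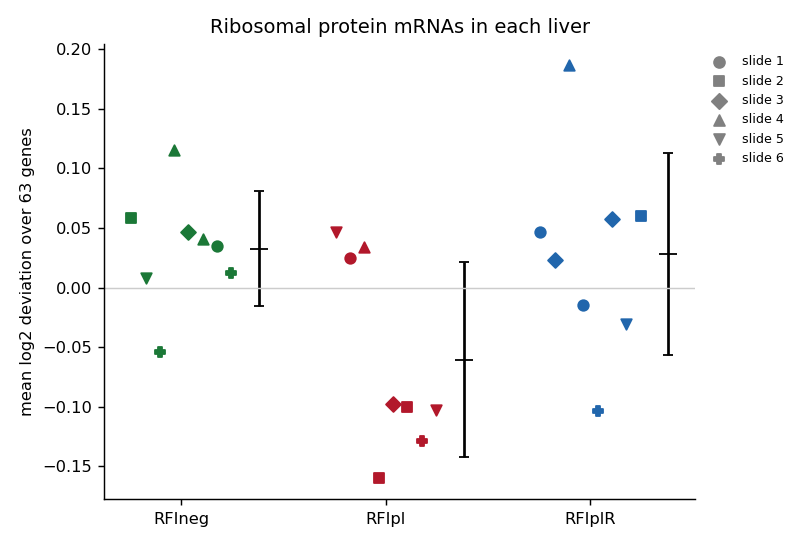
Mean log2 deviation of the 63 genes from their own means (y axis) in each pig, by group (x axis). Symbols mark the slide, bars are the mean ± SD of 8 pigs. RFIpl pigs form a lower set of 5 (-0.16 to -0.098) and a set of 3 within the RFIneg range.

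The correlation of a gene with the mean of the other 62 over the 24 arrays had a median of 0.61 and ran from -0.29 for RPS9 to 0.88 for RPS28, with 39 genes above 0.5. These are descriptions, since all genes of an array share its RNA, labelling and scaling. Among genes outside the family, the 10 most alike the family mean over the 24 arrays were MT-2B (r = 0.77), PSMG4 (0.74), POLR2L (0.71), COPS7A (0.70), CLCC1 (0.70), ATP2C1 (0.70), ST7 (0.70), SSR2 (0.69), MRPL52 (0.68) and GTF2H3 (0.67), out of 4343 symbols. MT-2B, a metallothionein, had levels from 5.18 to 5.53 in RFIneg, 4.64 to 5.58 in RFIpl and 4.95 to 5.55 in RFIplR.

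RPL6, a protein of the 60S subunit, had probes whose differences changed along the transcript. Order along the transcript was examined for RPL5, RPL6 and RPL14 only. Its brightest probe, A_72_P124171, ran from 7.48 to 7.71 (median 7.62) in RFIneg, 7.20 to 7.68 (median 7.52) in RFIpl and 7.42 to 7.71 (median 7.67) in RFIplR, so that the groups overlapped and RFIplR minus RFIneg was 0.014 ± 0.070 (SE). Of its 13 probes, 11 overlap each other in a chain and can be put in order. Shown, to let the start and the end of the chain be compared, are 3 probes from its start, its last probe, and a probe without a gene name that shares part of the stretch. Capitals mark 12 bases that 7 RPL6 probes have in common and that 1 further probe of the whole array holds.
A_72_P729538: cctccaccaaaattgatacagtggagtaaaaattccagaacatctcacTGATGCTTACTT
A_72_P756548: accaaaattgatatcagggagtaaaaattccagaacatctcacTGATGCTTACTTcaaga
A_72_P730073: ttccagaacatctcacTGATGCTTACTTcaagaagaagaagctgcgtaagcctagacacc
A_72_P727278: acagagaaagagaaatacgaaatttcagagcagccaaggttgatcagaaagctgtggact
A_72_P774083: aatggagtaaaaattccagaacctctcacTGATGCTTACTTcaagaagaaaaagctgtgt

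The probes from this stretch were picked after their values were seen, so no test is made of them as a set. At A_72_P730073, RFIneg pigs were close together, from 5.97 to 6.23 (median 6.08), while RFIpl pigs ran from 5.29 to 6.10 (median 5.79) and RFIplR pigs from 5.34 to 5.97 (median 5.66). At A_72_P756548 the spread was wider, with 3.83 to 4.69 (median 4.50) in RFIneg, 1.61 to 4.60 (median 4.13) in RFIpl and 2.85 to 4.19 (median 3.64) in RFIplR. At A_72_P727278, the last of the chain, the groups covered much the same range, 5.66 to 6.18 in RFIneg, 5.40 to 6.13 in RFIpl and 5.67 to 6.17 in RFIplR. At A_72_P729538, the first probe, RFIneg pigs ran from 3.99 to 4.33, RFIpl pigs from 2.90 to 4.195 and RFIplR pigs from 3.35 to 4.29. RFIplR medians were thus below those of RFIneg at the start of the chain, with overlap between the groups at A_72_P729538 and A_72_P756548, and the ranges were alike at its end.

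RFIplR minus RFIneg was between -0.92 and -0.27 at the 7 probes with the 12 bases, with a median of -0.40, and between -0.29 and 0.014 at the other 6, with a median of -0.052. RFIpl minus RFIneg was between -0.72 and -0.22 (median -0.345) at the 7 and between -0.28 and -0.11 (median -0.15) at the 6. RFIplR minus RFIpl had medians of -0.047 and 0.093. None of the 13 RPL6 probes was called. Their smallest limma adjusted p was 0.128 in RFIplR minus RFIneg and 0.305 in RFIpl minus RFIneg. The lowest difference in RFIplR minus RFIneg came from A_72_P756548, with an SE of 0.32 (limma adjusted p = 0.225). The change along the chain was gradual: A_72_P722393, the next probe after those with the 12 bases, was at -0.29 in RFIplR minus RFIneg, against -0.28 at A_72_P719128 and -0.27 at A_72_P722398, which hold them. The unnamed probe A_72_P774083 differed by -0.60 in RFIpl minus RFIneg and by -0.51 in RFIplR minus RFIneg (limma adjusted p = 0.573 and 0.529).

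Within each array, the mean of the 7 probes minus the mean of the other 6 cancels any constant subtracted from that array. Relative to the RFIneg mean of this gap, RFIneg pigs ran from -0.073 to 0.098, RFIpl pigs from -0.73 to -0.030 and RFIplR pigs from -0.55 to -0.16. All 8 RFIplR pigs and 5 of 8 RFIpl pigs lay below the lowest RFIneg pig. Because the 7 probes were picked after their values were seen, this separation describes the pick and is not a test. How often other genes or other splits of probes separate the groups was not computed. RFIpl pig 6 had the largest gap, and RFIpl pigs 1 to 4 had gaps of -0.078 to -0.030.

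**Figure D4:**
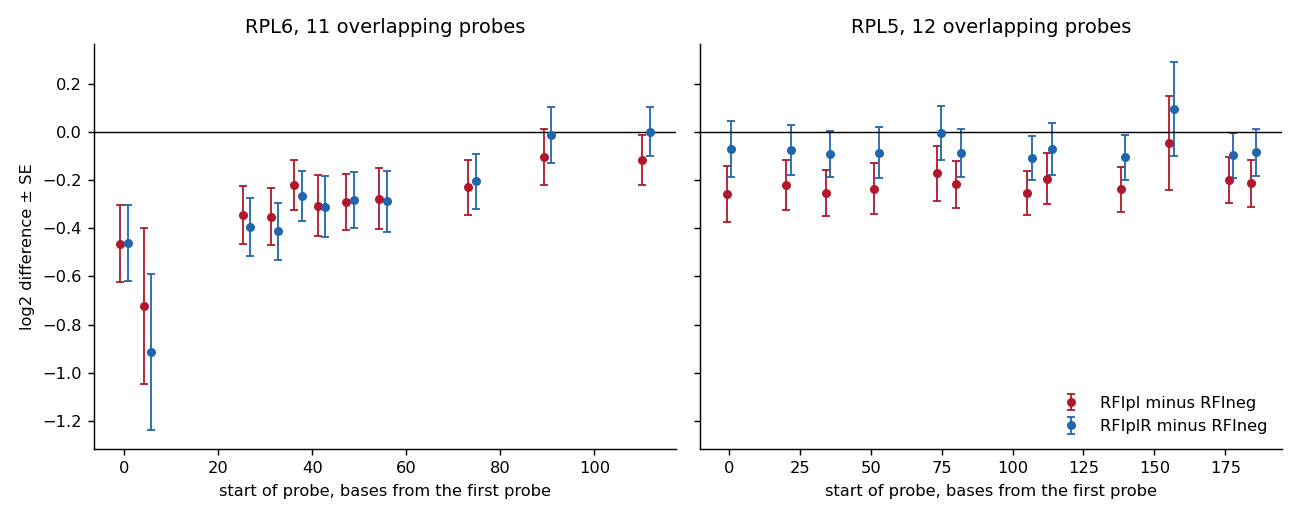
Log2 difference ± SE (y axis) at the overlapping probes of RPL6 (left, 11 probes) and RPL5 (right, 12 probes) by the start of the probe in bases from the first probe (x axis), for RFIpl minus RFIneg and RFIplR minus RFIneg. At RPL6 both line comparisons start low (-0.46 at the first probe) and reach -0.12 and about 0 at the last. At RPL5 the differences of either comparison stay level along the chain, with 1 probe (-0.045 in RFIpl minus RFIneg) apart.

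Probes of other genes disagreed too. The difference RFIpl minus RFIneg spanned -0.24 to 0.60 over the 6 probes of RPS23, -0.20 to 0.15 over the 16 of RPS4X, -0.14 to 0.28 over the 6 of RPS10 and -0.17 to 0.17 over the 5 of RPL11, against -0.46 to -0.25 over the 6 of RPL14. Over 154 pairs of probes of the same gene with a shared run of at least 25 bases, the difference RFIpl minus RFIneg disagreed by a median of 0.032 and at most by 0.50, between RPL6 probes, where both probes passed the filter. No such run was shared by probes of different genes of the family. Averaging all probes of a gene instead of taking the brightest gave a median of -0.095 with 56 of 63 genes below 0.

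Genes that work beside the ribosomal proteins were listed with earlier results of these data known, and none of their brightest probes was called in RFIpl minus RFIneg or in RFIplR minus RFIpl. FAU, whose product is cut into a ribosomal protein and a ubiquitin-like leader, differed by -0.041 in the first (limma adjusted p = 0.862) and 0.11 in the second (0.919). RACK1, the scaffold on the 40S subunit, differed by -0.21 in the first (limma adjusted p = 0.457) and 0.094 in the second (0.973). Of 27 other TOP mRNAs 11 were measured, and 10 of these were below 0 in RFIpl minus RFIneg with a median of -0.15, among them the elongation factor EEF1A1 at -0.175, the initiation factor subunit EIF3E at -0.17 and the nuclear import receptor IPO5 at -0.22. In RFIplR minus RFIpl 8 of the 11 were above 0, with a median of 0.033.

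Ribosome biogenesis factors were not lower as a list: of 76 listed, 18 were measured, and 7 were below and 11 above 0 in RFIpl minus RFIneg, with a median of 0.036. NOC4L, which acts in assembly of the small subunit, was the highest of them at 0.34 (limma adjusted p = 0.162). Of 39 genes of TOR and S6 kinase signalling 14 were measured. In RFIpl minus RFIneg 10 were below 0 (median -0.069), with MTOR at -0.22, and in RFIplR minus RFIpl 11 were above 0 (median 0.13), with MTOR at 0.24. CASTOR1, an arginine sensor upstream of mTOR complex 1, had the smallest limma p of that list in RFIplR minus RFIpl, at a difference of 0.36 (limma adjusted p = 0.723). All 13 mitochondrial ribosomal protein genes on the array were measured, and 10 were below 0 in the first (median -0.082) and 11 above 0 in the second (median 0.056).

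**Figure D5:**
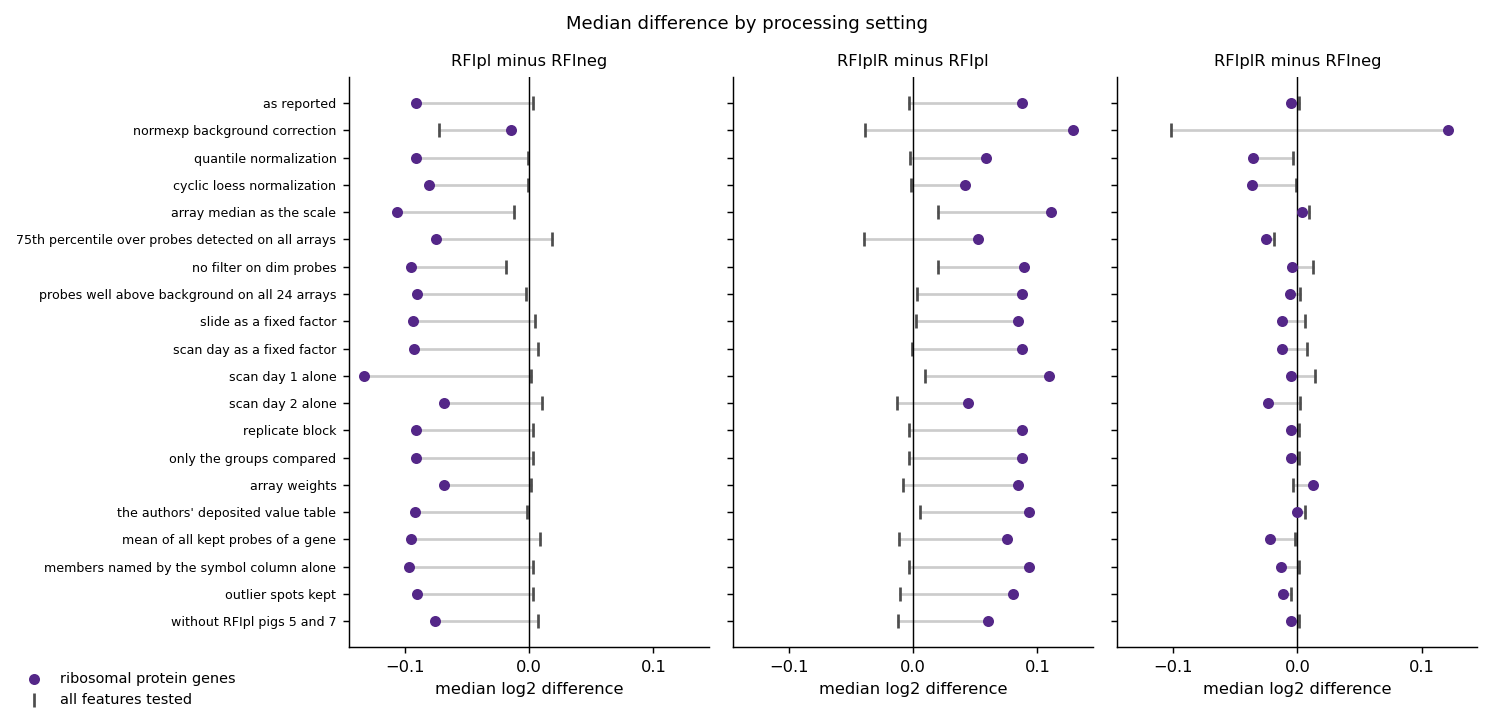
Median log2 difference (x axis) of the ribosomal protein genes (dots) and of all features tested (ticks) in 3 comparisons, under each processing setting (y axis). The dots stay below the ticks in RFIpl minus RFIneg except with normexp background correction (-0.014 against -0.072), stay above them in RFIplR minus RFIpl, and lie on either side of them in RFIplR minus RFIneg.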

How the data were processed

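Total liver RNA of each pig was labelled with Cy3 per the labels' protocols. The deposited intensity values are Agilent's processed signal from 1-colour arrays, read with Feature Extraction and corrected for background and spatial trend per the file headers. A second deposited file gives log2 values of 27564 features, equal to log2 of that signal minus its array median over these features; it served as an alternative. The submitters' processing notes name R 2.10.0.

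Control spots and spots marked as outliers by the scanner software were left out. The log2 processed signal minus the 75th percentile of each array was averaged over spots of a probe. The filter kept probes that at least 6 of the 8 arrays of some group showed well above background. Names came from RefSeq accession (179 of 289 probes), symbol (47), description (31), described homology to a mammalian gene (31) or synonym (1), through the RefSeq annotation of Sscrofa11.1 used for names only. A further 26 probes described by a ribosomal protein of a non-mammal were left out.

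limma 3.58.1 in R 4.3.3 was fitted to all 24 arrays with group as the only factor. Tables were made with Python 3.11.15 and pandas 2.3.3. The test was checked on simulated data for RFIpl minus RFIneg with 200 of 29665 probes changed, where it called 89.1% of changes of 1 and 100% of changes of 2 (log2), and 5.05% of its calls were false. Changes smaller than 1 were not simulated, so the check does not cover differences of the size reported for the ribosomal protein genes. Array number limits the precision. Named are genes with a called probe, the 6 largest differences in each direction of each comparison, the 5 brightest and 5 dimmest genes, the 5 genes whose probes disagree most, and genes picked for their role. Genes, lists and rules were chosen with earlier results of these data known. Probe sequences are those of the scanner output.

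Pig numbers in the labels recur in each group. Over 24 pairs of same-numbered pigs the correlation of deviations ran from -0.19 to 0.42. Correlations between pigs of different number were not computed, so this range cannot decide whether the numbers pair pigs. The fit treated the pigs as unpaired, and a fit with pig number as replicate block is given below. Values of some genes are not reported here.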

Additional observations from a re-analysis of the deposited data

Results flagged for a closer look

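Dixon's criterion for groups of 8 was applied to the family mean and to the named genes that passed the filter, 111 sets of 8 pigs, and marked 7 single pigs (6.31%), where chance marks about 1 set in 20. RPL7A lay at a log2 level of 2.20 in RFIneg pig 8, against 3.05 to 3.61 in the others, and at 2.65 in RFIpl pig 7, against 3.28 to 3.51. RPS4X lay at 5.66 in RFIpl pig 7, against 6.22 to 6.43. RPLP1 lay at 8.30 in RFIplR pig 7, against 8.48 to 8.57. RPL24 lay at -2.24 in RFIplR pig 4, against -0.78 to 0.22. Above their groups lay RPS2 at 0.423 in RFIneg pig 1, against -0.23 to 0.068, and RPS21 at 8.07 in RFIplR pig 3, against 7.76 to 7.89. The family mean marked no pig. No cause was tested.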

How the results depend on the processing

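In RFIpl minus RFIneg the median of the 63 genes stayed below 0 under all alternatives run, and in RFIplR minus RFIpl above 0. Below 0 was not always below the other probes. With normexp background correction the genes' median in RFIpl minus RFIneg lay above that of all probes. In all, 7517 values were recomputed for named genes, the second called RPL14 probe and the medians of the RPL6 probe sets. Only the called RPL14 probes in RFIpl minus RFIneg had a call to lose, and they lost it 41 times. The brightest kept it in 27 of 49 alternatives and the other in 29 of 48. A change of sign occurred in 354 of the 7517 values, all of them differences that were not called. RPL14 in RFIplR minus RFIneg went from -0.14 to 0.0525 with normexp. Normexp background correction moved most: in RFIpl minus RFIneg the median was -0.0144 with 54.0% of genes below 0, and in RFIplR minus RFIneg 0.121 with 14.3% below 0. The cause was not tested.

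Counts of ribosomal protein genes called, here and in the next paragraph, go by the brightest probe alone. At least 1 of the 2 RPL14 probes was called in RFIpl minus RFIneg in 32 of 48 alternatives. By the brightest probe, the count in RFIpl minus RFIneg went from 1 to 0 with normexp, quantile or cyclic loess normalization, no dim filter, slide as a factor, either scan day alone, the replicate block, only the groups compared, or slide 1, 2, 4, 5 or 6 left out. Of all probes, 45 were called there in the fit described, 5 with normexp, 26 with no filter, 5 and 10 on scan days 1 and 2, 89 with array weights, and 13, 28, 22 and 23 without slides 2, 3, 5 and 6. In RFIplR minus RFIneg 82 were called, 14 with normexp, 41 with no filter, 51 with slide as a factor, 38 and 10 on scan days 1 and 2, 32 with only the groups compared, and 31, 22, 39 and 27 without slides 2, 3, 4 and 5. In RFIplR minus RFIpl 1 was called on scan day 2 and 0 in the fit described. Against the mean of RFIneg and RFIplR 2 were called, 1 with the array median as scale, on day 1 or without slide 3 or 5, and 0 with normexp, slide as a factor, day 2, the replicate block, without RFIpl pigs 5 and 7, or without slide 2 or 4. The F test called 61 probes, 7 with normexp, 36 with no filter, 9 and 11 on scan days 1 and 2, and 18, 28, 26, 23 and 30 without slides 2 to 6. It called 1 ribosomal protein gene rather than 0 with the array median, the filter on all 24 arrays, array weights, the deposited table, gene means, outlier spots kept, or without RFIpl pigs 5 and 7. The last of these and the outlier spots were added after seeing the data.

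Leaving out 1 pig at a time gave 27 to 57 probes and 0 to 1 ribosomal protein genes called in RFIpl minus RFIneg (median -0.116 to -0.0785), 33 to 152 probes in RFIplR minus RFIneg, 0 to 4 against the mean of RFIneg and RFIplR, and 38 to 82 probes and 0 to 1 genes in the F test. With pig number as replicate block, 48 probes were called in RFIpl minus RFIneg, the genes' median was -0.0912 and RPL14 had a limma adjusted p of 0.0744. Leaving out saturated spots was not run separately, since 0 spots were saturated.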
